A study of Mus musculus with 25 samples.

Results

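Actins and tropomyosins build the thin filament of muscle and the actin cytoskeleton of all cells, and their isoforms are encoded by separate genes and, for tropomyosins, also by alternative promoters within a gene. To describe how Spin1 and H3K4me3 are distributed over these genes in muscle precursor cells, all peaks at the 6 actin genes (Acta1, Actc1, Acta2, Actg2, Actb and Actg1) and the 4 tropomyosin genes (Tpm1, Tpm2, Tpm3 and Tpm4) were examined. The genes were chosen by name, as the actin and tropomyosin isoform genes, and make up 10 of the 26180 genes with curated transcripts in RefSeq. Their 29 curated transcripts start at 12 promoters, out of 29494 promoters in all, since Tpm1 and Tpm3 have 2 each. ChIP-seq against Spin1 and against H3K4me3 was done in primary myoblasts (PriMBs) of C57BL/6 mice (C57BL/6 N in the study's methods), which had been taken from limb muscle at an age of 10 days, enriched by preplating and grown until the dishes were about 70% covered. No genetic change or treatment is named for these cells, and each antibody gave 1 library, called against input DNA, so no value below has a replicate and no difference was tested. The values are peak positions and scores, the depth of the libraries is unknown, and a peak from a bulk culture does not tell a mark on all cells from a mark on some of them.

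As background, Spin1 is a reader protein that binds histone H3 trimethylated at lysine 4 (H3K4me3), a modification found at the start of active and poised genes. Striated muscle uses Acta1 (skeletal α-actin) and Actc1 (cardiac α-actin, which is also made in developing skeletal muscle), smooth muscle uses Acta2 and Actg2, and all cells use Actb and Actg1 for the cytoskeleton. Tropomyosins are coiled-coil dimers that lie along the actin filament and, in striated muscle, place troponin on it. Many of these genes are classical targets of serum response factor (SRF), which binds a sequence called the CArG box and is switched on by the actin-sensing cofactors Mrtfa and Mrtfb.

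The 150 bases before the transcription start site (TSS) are shown for 4 actin promoters, because 3 of them hold a CArG box. The sequences were taken from RefSeq (GRCm38.p6) and are written 5′ to 3′ on the strand of the gene, with a CArG box in capitals. They lie at chr8:123894776-123894925 for Acta1, chr2:114052876-114053025 for Actc1, chr11:120348496-120348645 for Actg1 and chr19:34255374-34255523 for Acta2, all on the minus strand.
Acta1: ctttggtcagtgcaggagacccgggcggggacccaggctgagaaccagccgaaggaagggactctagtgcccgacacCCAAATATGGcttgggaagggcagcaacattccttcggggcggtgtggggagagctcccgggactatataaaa
Actc1: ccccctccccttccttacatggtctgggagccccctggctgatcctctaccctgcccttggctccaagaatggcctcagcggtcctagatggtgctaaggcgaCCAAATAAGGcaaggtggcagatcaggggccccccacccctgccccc
Actg1: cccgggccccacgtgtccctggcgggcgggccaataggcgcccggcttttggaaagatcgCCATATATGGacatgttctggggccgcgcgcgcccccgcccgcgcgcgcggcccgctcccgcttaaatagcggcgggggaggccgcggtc
Acta2: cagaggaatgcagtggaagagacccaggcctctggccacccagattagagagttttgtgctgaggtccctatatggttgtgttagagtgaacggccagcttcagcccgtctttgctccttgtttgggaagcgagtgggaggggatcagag

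A CArG box begins 73 bases before the TSS of Acta1, 47 bases before that of Actc1 and 90 bases before that of Actg1. In the 250 bases before the TSS, on either strand, 1.47% of 32851 RefSeq promoter sequences hold a CArG box, and 3 of the 9 sequences matched to 8 of the actin and tropomyosin genes do. No promoter sequence was matched for Actb, Actg2 and the internal promoter of Tpm1. Acta2 holds no full CArG box in this window, and with 1 differing letter allowed, a setting added after the data were seen, 7 of the 9 sequences hold one, all but those of Tpm2 and Tpm4, against 18.6% of all sequences.

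Of the other motifs searched on both strands, TATAAA was found 7 bases before the TSS of Acta1 and in none of the other 8 sequences, against 12.4% of all sequences. CATTCC, the core bound by TEAD factors, was present at Acta1, Acta2 and the upstream promoter of Tpm1, that is in 3 of 9 sequences against 12.6% of all. GGGCGG, the GC box bound by Sp1, was present in 6 of 9 sequences against 32.7%, and CANNTG, the E-box bound by Myod1 and other bHLH factors, in 7 of 9 against 66.2%. The share of E-boxes is therefore close to that of promoters in general, and Actc1 and Tpm4 are the sequences without one. No match of one motif overlapped a match of another in these sequences, and a match shows a sequence and not a bound site.

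At TSS±1 kb, 9 of the 10 genes had a Spin1 peak, all 10 had an H3K4me3 peak and 9 had both. Among all curated genes these shares are 50.7% for Spin1, 61.9% for H3K4me3 and 50.6% for both, and among protein-coding genes alone 56.7% and 68.0%. The only gene without Spin1 at its promoter was Actg2, the actin of visceral smooth muscle. Counted by promoter, 10 of 12 had Spin1 and 11 of 12 had H3K4me3, against 48.8% and 60.9% of all promoters. Spin1 was thus present at 10 of the 11 promoters with H3K4me3, against 80.0% of all promoters with H3K4me3, and no promoter had Spin1 alone. The upstream promoter of Tpm3 had neither peak.

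**Figure D1:**
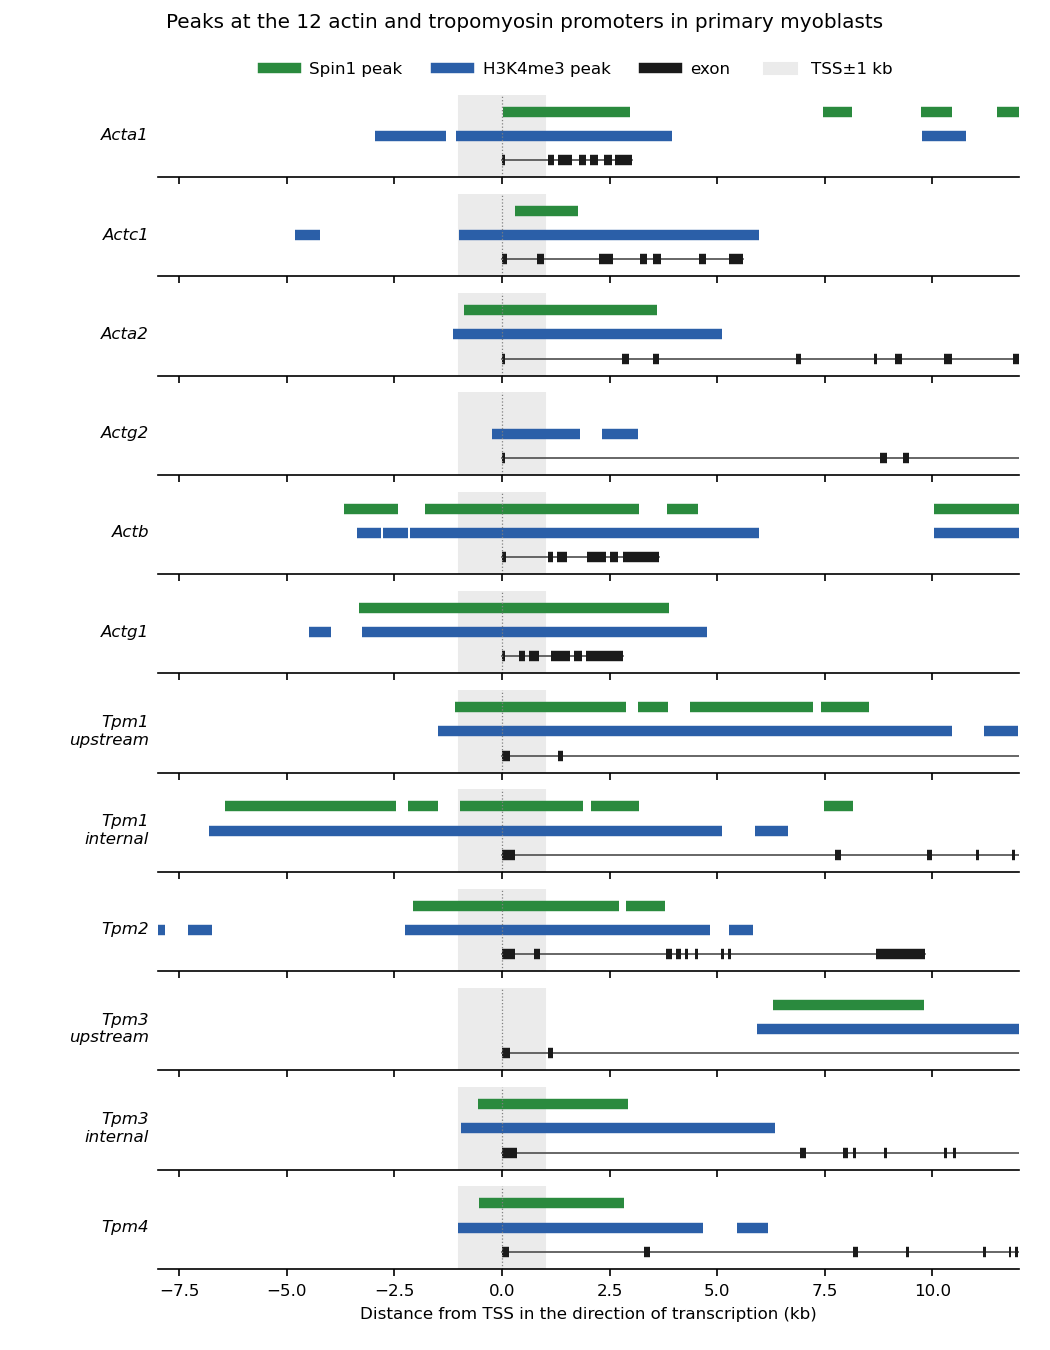
Peaks around each of the 12 actin and tropomyosin promoters, with the distance from the TSS in kb, positive in the direction of transcription, Spin1 peaks in green, H3K4me3 peaks in blue, exons of 1 transcript in black and TSS±1 kb shaded. Spin1 begins downstream of the TSS at Acta1 (17 bp) and Actc1 (309 bp), is missing at Actg2, and neither mark reaches the upstream TSS of Tpm3.

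Both striated muscle actin genes carried Spin1 behind their annotated TSS and not over it, by 17 bp at Acta1 and by 309 bp at Actc1. At Acta1, the gene of the main actin of adult skeletal muscle fibres (TSS at chr8:123894775, minus strand), the Spin1 peak at chr8:123891808-123894758 was 2951 bp wide with a score of 994. It began 17 bp downstream of the TSS in exon 1 and ended in exon 7, the last exon, so that it covered 97.8% of the 3018-bp gene but 49.2% of the promoter window. H3K4me3 (chr8:123890817-123895848, 5032 bp, score 3100) extended from 1073 bp upstream of the TSS to 3958 bp downstream and contained the Spin1 peak.

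At Actc1 (TSS at chr2:114052875, minus strand), the Spin1 peak was the narrowest and lowest-scoring Spin1 promoter peak of these genes. It lay at chr2:114051097-114052566 with a width of 1470 bp and a score of 586, and reached from 309 bp behind the TSS in intron 1 to 1778 bp in intron 2. The H3K4me3 peak (chr2:114046898-114053867, 6970 bp, score 3100) covered the whole gene of 5594 bp and was 4.74 times as wide as the Spin1 peak, a ratio above that of 98.7% of all promoters with both marks. The median ratio over these 14355 promoters was 1.54, with quartiles of 1.34 and 1.86. The promoter of the lncRNA C130080G10Rik also overlaps this H3K4me3 peak, so the mark there cannot be assigned to Actc1 alone.

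A Spin1 peak that leaves out the TSS is uncommon, since 94.2% of all promoters with Spin1 have a Spin1 peak over the TSS, and 95.9% of those with H3K4me3 have that mark over it. Among the actin and tropomyosin promoters, the TSS was covered at 8 of 10 with Spin1 and at 11 of 11 with H3K4me3. Acta1 is left out of these 8 by 17 bp only. How precisely the edge of a peak and the annotated TSS are placed was not tested. Both calls at the striated actins depended on the score threshold, as Acta1 and Actc1 kept Spin1 at a score of at least 100 and lost it when the peaks of each list were limited to the 50% with the highest scores, and Actc1 also lost it when the window ended 0.1 kb behind the TSS.

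The smooth muscle actin genes differed from each other. At Acta2, which is made in vascular smooth muscle and in myofibroblasts (TSS at chr19:34255373, minus strand), a Spin1 peak at chr19:34251772-34256250 had a width of 4479 bp and a score of 3100. It spanned the TSS, from 877 bp upstream to exon 3 at 3601 bp downstream, and was wider than 95.4% of Spin1 promoter peaks. H3K4me3 at chr19:34250251-34256518 was 6268 bp wide and likewise scored 3100.

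Actg2 (TSS at chr6:83536251, minus strand) had no Spin1 peak anywhere in its 23343 bp. Its H3K4me3 peak at chr6:83534439-83536485 was 2047 bp wide with a score of 504, the lowest width and score among the H3K4me3 promoter peaks of these genes, with 22.3% of all H3K4me3 promoter peaks below it in width. It covered 61.7% of the promoter window, and a second, weaker H3K4me3 peak (score 167) began 2.32 kb downstream of the TSS in intron 1. With the 50% of peaks of the highest scores, Actg2 had no promoter peak of either kind.

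Both cytoplasmic actin genes were covered almost entirely by Spin1 and H3K4me3. At Actb, which encodes the β-actin of non-muscle filaments (TSS at chr5:142906754, minus strand), Spin1 formed a peak of 4960 bp at chr5:142903577-142908536, from 1782 bp upstream of the TSS to exon 6 at 3177 bp downstream, over 87.3% of the gene. H3K4me3 at chr5:142900782-142908889 was 8108 bp wide and ran past the end of the gene. Each peak had a score of 3100.

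At Actg1, the gene of cytoplasmic γ-actin (TSS at chr11:120348495, minus strand), the Spin1 peak at chr11:120344607-120351804 was 7198 bp wide with a score of 3100 and ranked number 43 by width among 11797 Spin1 promoter peaks. It covered the whole gene of 2809 bp and extended 3309 bp upstream of the TSS, and it also overlapped the promoters of Mir6935 and of the lncRNA 0610009L18Rik. H3K4me3 at chr11:120343728-120351750 was 8023 bp wide, which is 1.11 times the width of the Spin1 peak, a ratio that 4.14% of promoters with both marks fall below. Upstream, Spin1 reached 54 bp beyond H3K4me3, the only place at these promoters where it did so.

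Part of the sequence under some promoter peaks occurs elsewhere in the genome. Matches of at least 95% identity over at least 100 bp were found for 27.9% of the Actg1 Spin1 peak, with identities up to 99.8%, for 15.1% of the Actb Spin1 peak and for 11.5% of the Spin1 peak of the internal Tpm3 promoter. No such match was found under the Spin1 promoter peaks of Acta1, Actc1, Acta2, Tpm1, Tpm2 and Tpm4, nor under the H3K4me3 promoter peak of Actg2. How reads from the copies were placed was not tested.

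Short genes are often covered to a large part by their promoter peak. Among protein-coding genes of up to 6 kb, Spin1 covered 90% of the gene or more at 17.5% of those with Spin1 at the promoter, and H3K4me3 did so at 33.1% of those with H3K4me3. Of the 4 actin genes of this length, Acta1 and Actg1 were covered to this extent by Spin1, and Acta1, Actc1, Actb and Actg1 by H3K4me3, each over 100% of the gene. Among the longer genes, Spin1 covered between 0% of Actg2 and 36.9% of Tpm2, and H3K4me3 between 11.3% of Actg2 and 54.9% of Tpm2.

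Tpm1 gives long isoforms from its upstream promoter, among them α-tropomyosin of striated and smooth muscle, and short cytoskeletal isoforms from its internal one. It had Spin1 at both promoters. The TSSs lie 5342 bp apart, at chr9:67049213 (6 transcripts) and chr9:67043871 (4 transcripts), both on the minus strand. Spin1 formed separate peaks, of 3974 bp with a score of 3100 at the upstream promoter (chr9:67046321-67050294) and of 2859 bp with a score of 2189 at the internal one (chr9:67041980-67044838). H3K4me3 formed a single peak of 11937 bp over both, at chr9:67038750-67050686, which ranked number 53 by width among 14605 H3K4me3 promoter peaks. Of 405 promoter pairs of 1 gene that lie 4 to 8 kb apart, 4.94% share an H3K4me3 peak over both TSSs and 0.741% a Spin1 peak. Within the H3K4me3 peak, further Spin1 peaks lay between the promoters (690 bp, score 117) and 2.07 kb behind the internal TSS (1126 bp, score 420).

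Tpm3, whose upstream promoter gives the α-tropomyosin of slow muscle fibres and whose internal promoter gives cytoskeletal isoforms, had both marks at the internal promoter alone. The upstream TSS at chr3:90072651 (plus strand, 2 transcripts) had no peak within 1 kb. The internal TSS at chr3:90079521 (5 transcripts), 6870 bp downstream, lay in a Spin1 peak of 3501 bp (chr3:90078957-90082457) and an H3K4me3 peak of 7288 bp (chr3:90078582-90085869), both with a score of 3100. Spin1 at some but not all promoters was seen at 37.6% of the 2580 genes with several promoters. The RefSeq Select transcript of Tpm3 starts at the upstream promoter, and with the TSS of Select transcripts alone, Tpm3 had neither mark.

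The promoters of Tpm3 also differ in CpG content, which is shown by the 150 bases before each TSS, taken from RefSeq (GRCm38.p6), at chr3:90072501-90072650 for the upstream and chr3:90079371-90079520 for the internal promoter, both on the plus strand, with CG dinucleotides in capitals.
Tpm3 upstream: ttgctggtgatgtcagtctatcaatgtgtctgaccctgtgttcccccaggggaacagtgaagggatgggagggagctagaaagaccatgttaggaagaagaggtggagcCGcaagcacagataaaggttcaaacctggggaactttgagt
Tpm3 internal: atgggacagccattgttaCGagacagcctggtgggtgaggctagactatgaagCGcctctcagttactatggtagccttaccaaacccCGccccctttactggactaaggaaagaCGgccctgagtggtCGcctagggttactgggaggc

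The upstream sequence holds 1 CG and the internal one 5. In TSS±500 bp there were 9 and 55 CG dinucleotides, and the ratio of observed to expected CG was 0.13 at the upstream promoter and 0.70 at the internal promoter. The median of this ratio over all promoters was 0.49.

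Tpm2 and Tpm4 have a single promoter each, and both marks covered its TSS. At Tpm2, the gene of β-tropomyosin (TSS at chr4:43523554, minus strand), Spin1 was 4764 bp wide (chr4:43520845-43525608) and H3K4me3 7100 bp (chr4:43518717-43525816). At Tpm4, which encodes a cytoskeletal tropomyosin (TSS at chr8:72135288, plus strand), the widths were 3382 bp (chr8:72134753-72138134) and 5700 bp (chr8:72134257-72139956). All 4 peaks had a score of 3100. The Spin1 peak was wider than 96.6% of Spin1 promoter peaks at Tpm2 and wider than 85.3% at Tpm4.

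The promoters fall into groups by CpG content, and occupancy by Spin1 differed between them. In the low class, with a ratio of observed to expected CG under 0.3 in TSS±500 bp, were Acta1 (0.25), Actc1 (0.22), Actg2 (0.19) and the upstream promoter of Tpm3 (0.13). Of these 4 promoters, 2 had Spin1 and 3 had H3K4me3, against 6.56% and 13.7% of all promoters of this class. The middle class, from 0.3 to 0.6, held Acta2 (0.34) and Tpm2 (0.54), which had both marks, against 40.2% with Spin1 and 65.1% with H3K4me3. The 6 promoters of the high class, Actb (0.81), Actg1 (0.94), both of Tpm1 (0.72 and 0.79), the internal promoter of Tpm3 (0.70) and Tpm4 (0.78), all had both marks, which is near the shares of 89.6% and 99.0% for this class.

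Among promoters of the low class that carry H3K4me3, 46.3% also have Spin1, against 61.7% in the middle class and 90.5% in the high class. Acta1, Actc1 and Actg2, with Spin1 at 2 of 3, are 3 of the 1442 promoters of the low class with H3K4me3. The striated actins were also those where Spin1 covered the least of the window, with 49.2% at Acta1 and 34.6% at Actc1 against 76.8% to 100% at the other 8 promoters with Spin1.

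**Figure D2:**
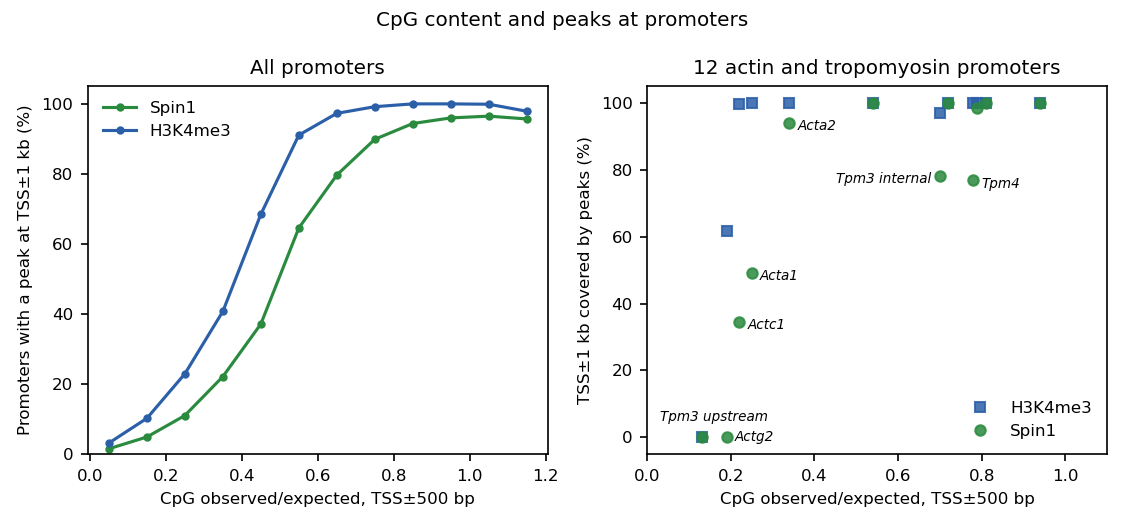
Left, share of all promoters with a Spin1 (green) or H3K4me3 (blue) peak at TSS±1 kb, in bins of the ratio of observed to expected CG in TSS±500 bp, and right, the percentage of TSS±1 kb covered by peaks at each of the 12 actin and tropomyosin promoters on the same scale. The share with Spin1 rises from 1.52% in the lowest bin to 95.6% in the highest, and Acta1 and Actc1 lie low for Spin1 and near 100% for H3K4me3.

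Most promoter peaks of these genes were wide. The 10 Spin1 promoter peaks ranged from 1470 bp at Actc1 to 7198 bp at Actg1 with a median of 3737.5 bp, and 9 of them exceeded the median of all Spin1 promoter peaks, 2167 bp. The widest 10% of all Spin1 promoter peaks begin at 3748 bp, a width that 5 of the 10 exceeded, those of Acta2, Actb, Actg1, Tpm1 (upstream) and Tpm2. The 10 H3K4me3 promoter peaks ranged from 2047 bp at Actg2 to 11937 bp at Tpm1 with a median of 7035 bp, and 8 exceeded 5466 bp, where the widest 10% of all H3K4me3 promoter peaks begin. The remaining H3K4me3 peaks were those of Acta1 and Actg2.

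A score of 3100 or more, at which MACS scores accumulate, was reached by 7 of the 10 Spin1 peaks, against 43.9% of all Spin1 promoter peaks, and by 9 of the 10 H3K4me3 peaks, against 84.1%. Scores grow with depth and width and were not compared between the antibodies. All 10 peaks of each kind extended further downstream than upstream of the TSS, measured at Tpm1 from the upstream TSS for H3K4me3. The share of all promoter peaks that do so was not computed, so nothing particular to these genes can be read from it. The width of H3K4me3 relative to Spin1 was highest at Actc1 (4.74), at the internal (4.18) and upstream (3.0) promoters of Tpm1 and at the internal promoter of Tpm3 (2.08), and between 1.11 and 1.71 at the other 6 promoters with both marks. Both Tpm1 ratios divide the same H3K4me3 peak of 11937 bp, which spans both promoters, by 1 Spin1 peak each. Several Spin1 peaks lie within that H3K4me3 peak, so these ratios do not give the share of it that Spin1 covers.

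**Figure D3:**
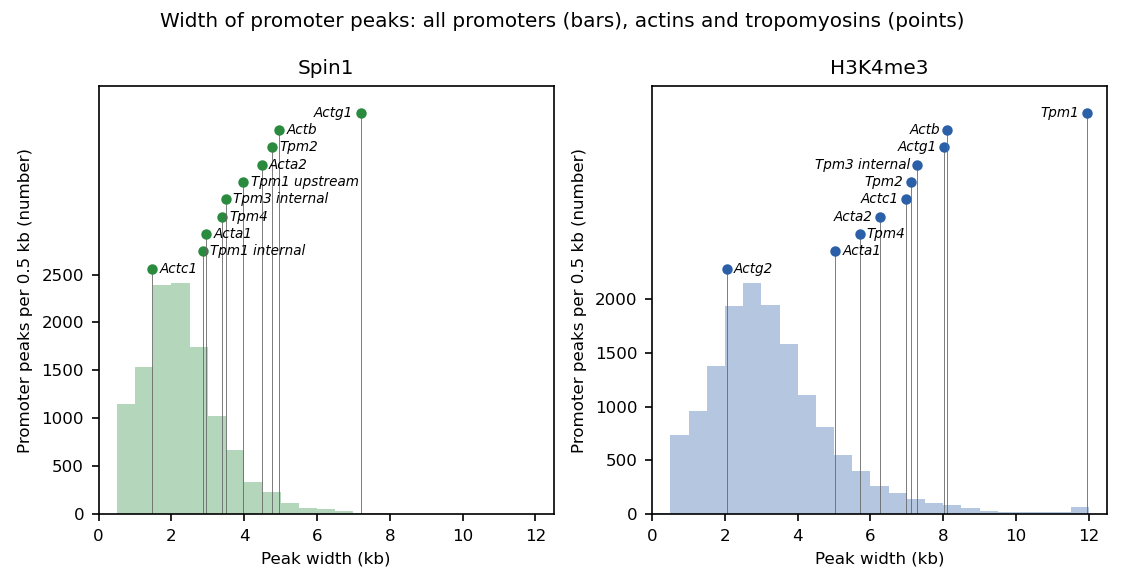
Number of promoter peaks per 0.5 kb of peak width for Spin1 (left) and H3K4me3 (right), with peaks over 12 kb in the last bar, and the width of each actin and tropomyosin peak as a labelled point whose height has no meaning. Actc1 is the only Spin1 point below the median of 2167 bp and Actg2 the only H3K4me3 point below the median of 3029 bp.

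Outside promoters, the gene bodies and the 50 kb on each side held 23 Spin1 peaks, at 6 of the 10 genes, and 28 H3K4me3 peaks, at 9 of the 10 genes. Over all genes, 30.2% have such a Spin1 peak and 59.3% such an H3K4me3 peak. Of the 23 Spin1 peaks, 17 overlapped H3K4me3, against 72.6% of all Spin1 peaks away from promoters, and 12 of the 28 H3K4me3 peaks overlapped Spin1, against 17.6% of all H3K4me3 peaks away from promoters. Most were weak, with scores under 200 for 13 of the Spin1 and 15 of the H3K4me3 peaks. The median score of the 23 Spin1 peaks was 174, against 145 for all 5309 Spin1 peaks away from promoters, and that of the 28 H3K4me3 peaks was 166, against 203 for all 16158 such H3K4me3 peaks.

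At both cytoplasmic actin genes, all such Spin1 peaks overlapped H3K4me3. Around Actb, 6 Spin1 peaks lay away from promoters, the highest number at an actin gene, followed by 3 each around Actg1 and Acta1. The nearest edges of 5 of the Actb peaks lay 2.4, 13.6, 19.1, 21.8 and 25 kb upstream of the TSS, outside any curated gene. The other lay 3.84 kb downstream, within the H3K4me3 peak of the Actb promoter. The Spin1 peak at 2.4 kb overlapped only weak H3K4me3 peaks, with scores of 50.1 and 50.8. The strongest Spin1 peak, at chr5:142928596-142930380, had a score of 865 and lay within an H3K4me3 peak of 2069 bp with a score of 3100. Around Actg1, 3 Spin1 peaks lay 31.0, 36.7 and 42.5 kb downstream of the TSS, with scores of 763, 439 and 448, in no curated gene. Each overlapped an H3K4me3 peak, with scores of 3100, 2451 and 3100 in the same order.

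Around Acta1, 3 weak Spin1 peaks lay 7.46, 9.73 and 11.5 kb downstream of the TSS, with scores of 83.8, 140.3 and 140.8, and 1 of them, at 9.73 kb, overlapped H3K4me3. An H3K4me3 peak without Spin1 (score 428) lay 1.3 kb upstream of the Acta1 TSS, and overlapped Nup133, the next gene. Actc1 had no Spin1 peak away from promoters within 50 kb, and neither did Actg2, Tpm3 and Tpm4. At Acta2, the pair of Spin1 peaks away from promoters, with scores of 120 and 101, lay in the neighbouring gene Stambpl1, 59.2 and 56.9 kb from the TSS.

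Of the tropomyosin genes, Tpm1 had 6 Spin1 peaks away from promoters, of which 3 lay in its gene body, including 1 with a score of 122 located 7.48 kb behind the internal TSS. The other 3 lay between 30.7 and 54.6 kb downstream of the internal TSS with scores from 102 to 184. Tpm2 had 3 Spin1 peaks away from promoters, all overlapping H3K4me3. One lay in its gene body 2.87 kb behind the TSS (score 210), one in Arhgef39 at 23.5 kb downstream (score 456) and one in Tln1 at 34.0 kb upstream (score 1359). Tln1 encodes talin, which links integrins to actin filaments, and its promoter, shared with Creb3, was covered by the same H3K4me3 peak of 8307 bp.

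**Figure D4:**
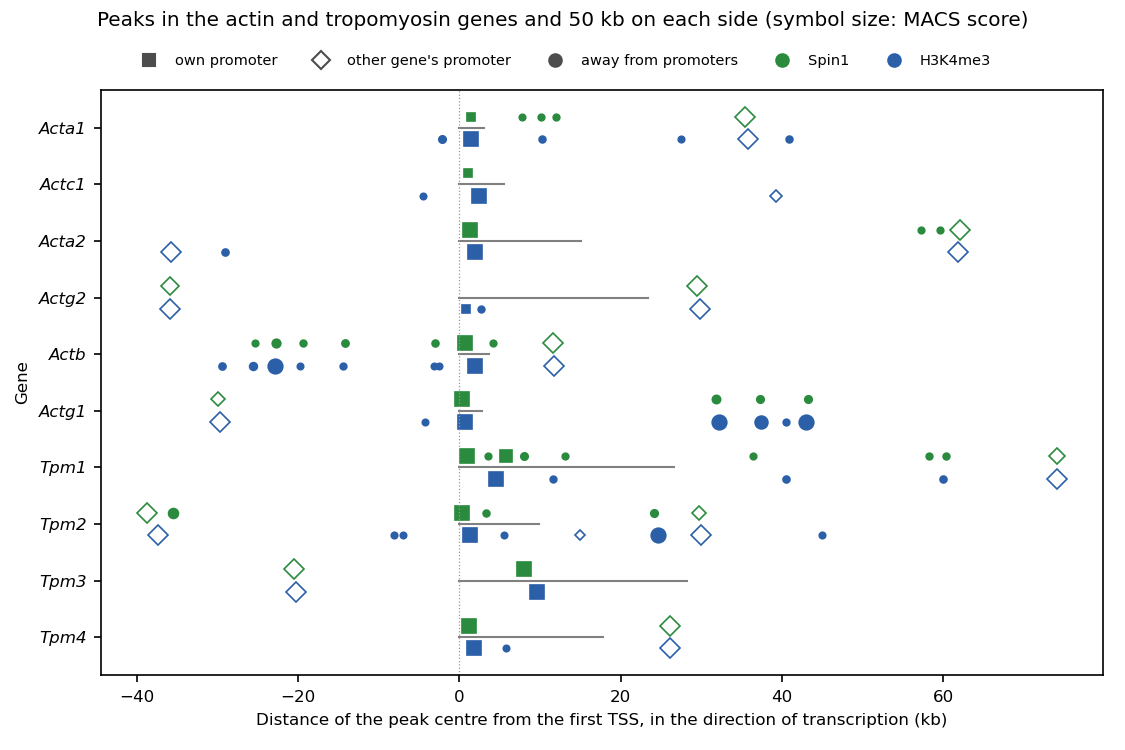
Spin1 (green, upper row) and H3K4me3 (blue, lower row) peaks in each gene and 50 kb on each side, by the distance of the peak centre from the first TSS in kb, positive in the direction of transcription, with symbol size growing with the MACS score. Actb has 6 and Actg1 3 Spin1 peaks away from promoters (circles), and Actc1, Actg2, Tpm3 and Tpm4 have none. Each of those at Actb and Actg1 overlaps an H3K4me3 peak, which at Actb can be that of its own promoter.

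Promoters of other genes within 50 kb held 11 Spin1 peaks, all overlapping H3K4me3, and 14 H3K4me3 peaks, of which 11 overlapped Spin1. Both counts are near the shares over all promoters, counted by promoter and not by peak. Of all promoters with H3K4me3, 80.0% have Spin1, and 14355 of the 14382 promoters with Spin1 have H3K4me3. Both marks were present at the promoters of Ccsap near Acta1, Stambpl1 near Acta2, Dguok and Stambp near Actg2, Fbxl18 near Actb, Faap100 near Actg1, Lactb near Tpm1, Rmrp with Ccdc107 and Tln1 with Creb3 near Tpm2, Ubap2l with 4933434E20Rik near Tpm3, and Rab8a near Tpm4. H3K4me3 without Spin1 was seen at 3 places. These were the promoter of Fas, which encodes a death receptor, upstream of Acta2 (score 3100), that of Gjd2 and A530058N18Rik downstream of Actc1 (score 912), and that of Arhgef39 and Car9 downstream of Tpm2 (score 367). Actg2 thus lies between promoters with Spin1, those of Dguok and Stambp, whose Spin1 peaks scored 2975 and 2499.5.

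Gene lists of the same pathway give the surroundings of these genes. The thin filament list holds 18 other genes for proteins of the sarcomeric thin filament or bound to it, such as troponins, leiomodins and α-actinins. Of these, 15 had both marks at the promoter, and Neb (nebulin), Tmod4 (a tropomodulin) and Tnni3 (cardiac troponin I) had neither. All 19 genes of cytoskeletal actin assembly, among them cofilin, capping proteins and Arp2/3 subunits, had both marks. Over all curated genes this share is 50.6%, and the lists were not compared with genes of like CpG content. The median width of the widest H3K4me3 promoter peak was 3683 bp over the thin filament genes that have one and 6024 bp over the cytoskeletal genes, beside 7194 bp over the 4 tropomyosins and 3029 bp over all H3K4me3 promoter peaks. The last value counts every promoter peak and not the widest of each gene, and how much this changes it was not computed. Of the regulators, Srf, Mrtfa and Mrtfb had both marks, and Myocd, the smooth and cardiac muscle cofactor of SRF, had H3K4me3 alone, with a peak of 1754 bp.

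Smooth muscle genes were divided, as were Acta2 and Actg2. Of 7 contractile smooth muscle genes, Cald1, Smtn and Tagln had both marks, Cnn1, Lmod1 and Myh11 had H3K4me3 alone, and Mylk had neither. Of 4 heart markers, Nkx2-5 had H3K4me3 alone and Myh6, Myl7 and Nppa had neither, whereas Actc1 had both marks. These 4 do not stand for all cardiac genes. In the thin filament list, Tnnt2 (cardiac troponin T) had both marks and Tnni3 neither. The cell type was checked in the same way, and all 5 myoblast markers (Myod1, Myf5, Cdh15, Des and Pax7) had both marks. So had all 5 fibroblast markers (Pdgfra, Col1a1, Col1a2, Tcf7l2 and Twist2), and their part in the occupancy of the actin and tropomyosin genes was not tested. Of 5 endothelial and blood cell markers none had Spin1, Cdh5, Kdr and Cd68 had H3K4me3 alone, and Pecam1 and Ptprc had neither. Beside these counts, 50.7% of all curated genes have Spin1, 61.9% have H3K4me3 and 50.6% have both.

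**Figure D5:**
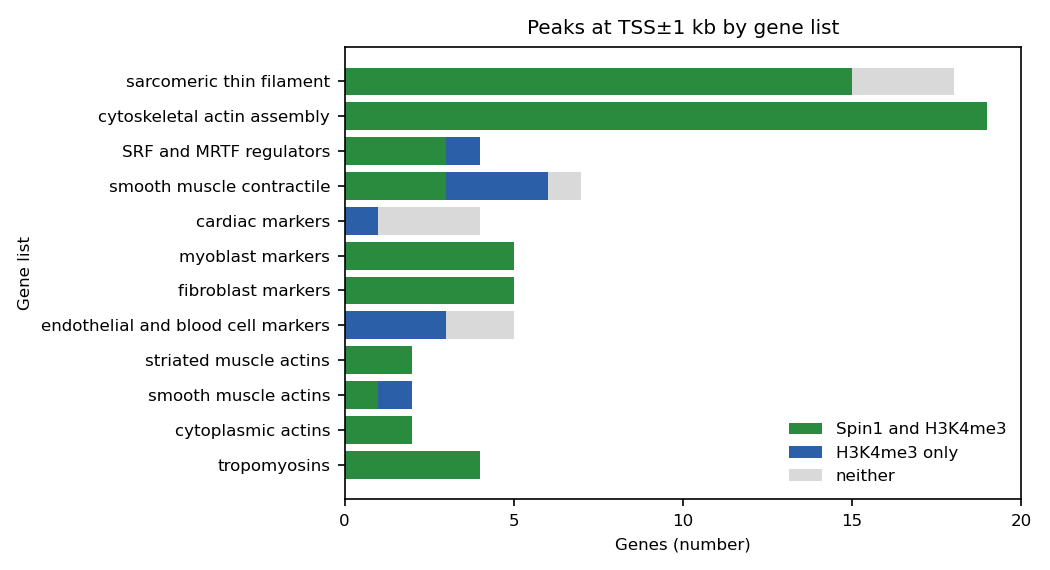
Number of genes per list with Spin1 and H3K4me3 (green), H3K4me3 alone (blue) or neither peak (grey) at TSS±1 kb of any promoter. All 19 cytoskeletal genes and 15 of 18 genes of the thin filament list have both marks, against 50.6% of all curated genes. None of the 4 heart markers and none of the 5 endothelial and blood cell markers listed has Spin1.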

How the data were processed

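The deposited values are MACS peak positions and scores in primary myoblasts, 1 library each for Spin1 (17106 peaks) and H3K4me3 (30763 peaks). According to the study's methods and the submitters' processing notes, paired-end reads were aligned by the authors to mm10 (GRCm38) using bowtie 2, and MACS 1.4.2 peaks over input were kept at a false discovery rate of up to 1%. The deposited score is −log10 of the MACS p-value multiplied by 10, and the lowest scores were 50.7 and 50.0. Depth is unknown, so weak peaks may be missing. The sample title names H3K4me3, and the antibody field leaves out the degree of methylation. Peaks were compared with curated RefSeq transcripts (release 108.20200622), and TSSs of 1 gene within 500 bp of the next were joined to 1 promoter. An overlap of 1 bp with TSS±1 kb counted as occupancy, which was checked on simulated peaks. Copies of peak sequence were searched with BLAST+ 2.17.0. Python 3.11.15, pandas 2.3.3, NumPy 2.4.6, pysam 0.24.0, samtools 1.23.1 and matplotlib 3.10.9 were used. The text names all 10 genes, neighbours whose promoters hold a peak within 50 kb, and of each list the genes that lack a peak or, where most lack both, those that have one. Tnnt2 is named in addition. The genes and lists were chosen with earlier results of these data known. Alternatives varied windows, scores, flanks and TSS sets. Neither the input nor the 22 RNA-seq samples were used.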

Additional observations from a re-analysis of the deposited data

How the results depend on the processing

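No paired analysis was possible because each antibody has 1 library. For 7 counts of genes or promoters, 47 alternatives were computed, and 40 stayed within 1.5 times the reported count. The other 7 were lower. For these alternatives the shares over all genes and promoters were not computed, so the counts below have no background beside them. When the centre of a peak had to lie inside TSS±1 kb, Spin1 was counted at 4 genes and 5 promoters, H3K4me3 at 3 genes and 3 promoters, and both at 2 genes. The genes without Spin1 by this rule were Acta1, Acta2, Actc1, Actg2, Tpm3 and Tpm4, and a peak whose centre lies more than 1 kb behind the TSS is not counted, whatever its width. With the 50% of peaks of the highest scores, Spin1 peaks away from promoters were found near 1 gene and H3K4me3 peaks near 3 genes, which follows from the low scores of these peaks. The number of promoter sequences with a CArG box rose from 3 to 7 with 1 differing letter allowed, an alternative chosen after seeing the data. Without replicates and read counts, the absence of a peak at Actg2 and at the upstream Tpm3 promoter means that none passed the threshold of MACS at an unknown depth.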
